A study of Mus musculus with 21 samples.

Results

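The genes of the synaptic vesicle and exocytosis machinery were examined in cortical RNA-seq of mice exposed to high-frequency head impact (HF-HI) or to sham treatment. Members were chosen by gene symbol, with earlier results of these data known. They were syntaxins, synaptobrevins and other SNAREs, their binding and disassembly factors, Unc13 and Cadps priming factors, synaptotagmins, complexins, scaffolds of the active zone, synapsins and other vesicle proteins, synaptojanins, and Rab3 with its partners. The table held 70 such genes among 5544, all 70 of them protein-coding. The symbol patterns also caught Rab31, Rab35 and Rab39b, which are Rab GTPases outside the Rab3 group, and Synj2bp, a protein of the outer mitochondrial membrane that is not a synaptojanin.

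All animals were male C57BL/6 mice aged 12 weeks, given as C57Bl/6J in the authors' methods. Every library was labelled WT (wild type). The 10 sham mice were handled and anesthetized without being struck, and the 11 HF-HI mice were anesthetized and received repeated impacts to the head on successive days. Cortex was taken 24 h after the procedure ended, and each mouse gave a single RNA library. Values were variance-stabilized, normalized for library size and on a log2 scale, so that a difference of 1 corresponds to a doubling for well expressed genes.

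A nerve terminal stores transmitter in vesicles that dock at the active zone, a protein scaffold facing the synaptic cleft. Fusion is driven by SNARE proteins: a synaptobrevin on the vesicle zips together with a syntaxin and Snap25 on the plasma membrane, while Munc13 proteins help assemble the complex and a synaptotagmin triggers fusion when calcium enters. The ATPase Nsf then takes the complex apart, and the vesicle membrane is retrieved and refilled.

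Of the 70 genes, 34 were higher in HF-HI than in sham and 18 were lower (limma, two-sided, Benjamini-Hochberg adjusted p under 0.05 over all 5544 genes), and 18 did not pass. Those are 48.6% and 25.7% of the members, beside 32.6% of all genes that were higher and 33.6% that were lower. The median log2 difference of the members was 0.11, beside -0.0086 over the table. The groups did not overlap in 10 of the higher members, beside 8.71% of all genes that were higher without overlap, and in 2 of the lower members, beside 4.76% of all genes. Differences of at least 0.5 were found in 10 higher members and in no lower one, and 5.74% of all genes were higher by that much. Rescaled libraries gave fewer higher and more lower calls: of all genes 1810 and 1864 were higher and lower, 1448 and 2376 with centred libraries and 1547 and 2242 with quantile normalization, and of the members 27 and 21, and 30 and 21. Cortex is a mixture of cells, and fewer cells of a type and less RNA per cell cannot be told apart in these libraries.

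Some sham libraries stood apart together. For Stx1a, replicates 1 to 4 were the lowest, as they were for Rab3a, at 11.17 to 11.33, where replicates 8 to 10 were the highest, at 11.71 to 11.73. Napa was also highest in replicates 8 to 10, at 10.74 to 10.88 beside 10.35 to 10.60 in the other sham libraries, and so was the difference of Rab3a minus Rab3c, at -0.98 to -0.93 beside -1.59 to -1.30. The reason was not tested. Libraries were sequenced in multiplexed pools, and which of them shared a pool or were prepared together is not stated. The tests take libraries as independent, and their p values would be too small if they were not. In fits chosen after seeing the data, 29 members were higher and 14 lower without sham 1 to 4, with a median difference of 0.068 (1582 and 1605 over all genes), and 34 and 19 without sham 8 to 10, with a median of 0.12 (1834 and 1884 over all genes). Snap25, Cadps2, Rims2, Stxbp5, Syngr3, Sv2c and Rab3gap2 were among the members that lost their calls without sham 1 to 4. In that order, their differences were then 0.10, -0.14, -0.076, 0.038, -0.15, 0.16 and -0.070. With all libraries they were 0.15, -0.19, -0.10, 0.10, -0.17, 0.15 and -0.074. Stx1a was 0.65 without sham 1 to 4 and 1.00 without sham 8 to 10, Rab3a 0.40 and 0.66, and Napa 0.21 and 0.38, and all of these passed. The pairs were not tested again without these libraries.

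All 5 SNAREs of regulated exocytosis in the table were higher, with a median of 0.50, although the call of Snap25 depended on the fit. Stx1a, a syntaxin of the presynaptic plasma membrane, had a lowest, median and highest value of 9.67, 10.28 and 10.51 in sham and of 10.85, 10.99 and 11.17 in HF-HI. The groups did not overlap, but sham replicates 1 to 4, at 9.67 to 9.89, lay below replicates 5 to 10, at 10.25 to 10.51. The difference was 0.90 ± 0.097 (SE, limma adjusted p = 5.67e-08), and the gene spans chr5:135023482-135051100 in GRCm38.

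Vamp2, the main synaptobrevin of forebrain vesicles, ran from 10.74 to 11.45, median 11.08 in sham and from 11.24 to 11.96, median 11.57 in HF-HI. The ranges overlapped, with 7 of 11 HF-HI libraries above every sham library, and the difference was 0.50 ± 0.098 (SE, limma adjusted p = 1.14e-04). Its close relative Vamp1 differed by 0.41 ± 0.075 (SE, limma adjusted p = 5.50e-05), with 10 HF-HI libraries above all of sham. Snap25, which supplies a pair of helices to the complex, had a smaller difference: its values, from a gene at chr2:136713453-136782428, were 14.47, 14.59 and 14.84 in sham and 14.52, 14.77 and 14.95 in HF-HI, lowest, median and highest. Only 3 HF-HI libraries exceeded all sham libraries, and the difference was 0.15 ± 0.054 (SE, limma adjusted p = 0.0144). It was 0.10 with centred libraries (adjusted p = 0.089), and it did not pass with quantile normalization, with relative depth as a covariate (0.12, adjusted p = 0.0595) or without sham 1 to 4 (0.10, adjusted p = 0.164) either, while it passed at 0.29 with the GC trend removed (adjusted p = 9.06e-04).

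Of the SNAREs of the Golgi, endosomes and lysosomes, 4 of 8 were lower, 1 was higher and 3 did not pass. Vamp7, which serves late endosomes and lysosomes, had the lowest difference of all members. It ran from 8.88 to 9.47, median 9.16 in sham and from 8.60 to 8.99, median 8.80 in HF-HI, with 7 HF-HI libraries below every sham library, and differed by -0.35 ± 0.061 (SE, limma adjusted p = 2.79e-05). Stx7, an endosomal syntaxin, and Stx6, of the trans-Golgi network, were lower by a difference of -0.21 and -0.15. Snap47, a relative of Snap25 found on intracellular membranes, differed by -0.20 ± 0.042 (SE, limma adjusted p = 2.29e-04). Stx16, the trans-Golgi partner of Stx6, was the higher one, at 0.18 ± 0.031 (SE, limma adjusted p = 2.12e-05).

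Among proteins that bind or take apart SNAREs, 5 of 10 were higher and 2 lower, and 4 and 3 with centred libraries. Complexins bind the assembled SNARE bundle and hold it ready for calcium. Cplx1 ran from 11.33 to 11.60, median 11.48 in sham and from 11.69 to 12.08, median 11.88 in HF-HI, without overlap, and differed by 0.41 ± 0.049 (SE, limma adjusted p = 1.97e-07). Cplx2 differed by 0.20 ± 0.050 (SE, limma adjusted p = 0.00133), and by 0.066 with the GC trend removed, where it did not pass (adjusted p = 0.170).

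The tomosyns Stxbp5 and Stxbp5l bind syntaxin in place of a synaptobrevin and limit fusion, and their differences had opposite signs. Stxbp5l ran from 11.31 to 11.55, median 11.42 in sham and from 11.10 to 11.28, median 11.22 in HF-HI, and all HF-HI libraries lay below all sham libraries, with a difference of -0.20 ± 0.030 (SE, limma adjusted p = 4.46e-06). Stxbp5 was higher by a difference of 0.10 ± 0.035 (SE, limma adjusted p = 0.0120), a call lost with centred libraries. The disassembly ATPase Nsf had values of 13.27, 13.37 and 13.48 in sham and 13.35, 13.44 and 13.55 in HF-HI. Its ranges overlapped widely, and the difference of 0.063 ± 0.029 (SE) lay just outside the threshold (limma adjusted p = 0.0622), while with the GC trend removed it passed at 0.089 (adjusted p = 0.0120). Of the adaptors that bring Nsf to SNAREs, Napa (alpha-SNAP) was higher at 0.28 ± 0.055 (SE, limma adjusted p = 1.07e-04) and Napb (beta-SNAP) lower at -0.21 ± 0.033 (SE, limma adjusted p = 9.83e-06).

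Priming factors, which make docked vesicles ready to fuse, had 1 higher and 2 lower genes of 5, and none of these calls remained with the GC trend removed. Unc13a (Munc13-1), the main priming factor of excitatory terminals, ran from 11.88 to 12.29, median 12.15 in sham and from 12.13 to 12.49, median 12.34 in HF-HI. The ranges overlapped, and 8 HF-HI libraries lay above all of sham. Its difference was 0.20 ± 0.045 (SE, limma adjusted p = 4.97e-04), and 0.041 with the GC trend removed (adjusted p = 0.360). Unc13b differed by -0.13 ± 0.042 (SE, limma adjusted p = 0.0105) and Cadps2, a factor tied to dense-core vesicles, by -0.19 ± 0.054 (SE, limma adjusted p = 0.00449). Cadps, its relative, did not pass at -0.063 ± 0.038 (SE, limma adjusted p = 0.140), but passed as lower with centred libraries (-0.11, adjusted p = 0.0111), quantile normalization (-0.092, adjusted p = 0.0368) and depth as a covariate (-0.097, adjusted p = 0.0208).

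Synaptotagmins with calcium-binding C2 domains had 3 higher genes of 5 and none lower, but with the GC trend removed 1 of them, Syt5, was lower. Syt7, a slow sensor of high affinity for calcium, had values of 10.31, 10.46 and 10.70 in sham and 10.87, 11.07 and 11.30 in HF-HI, lowest, median and highest. The groups did not overlap, and the difference was 0.59 ± 0.054 (SE, limma adjusted p = 6.13e-09). The fast sensor of forebrain synapses, Syt1, ran from 14.34 to 14.56, median 14.42 in sham and from 14.52 to 14.66, median 14.57 in HF-HI. Its ranges overlapped, with 7 HF-HI libraries above all of sham, and it differed by 0.14 ± 0.029 (SE, limma adjusted p = 1.53e-04). Syt2, a fast sensor used by many inhibitory neurons, differed by 0.36 ± 0.054 (SE, limma adjusted p = 4.90e-06). Syt5 did not pass (0.011 ± 0.051, SE, limma adjusted p = 0.856), and its sign turned with the GC trend removed, to -0.21 (adjusted p = 1.79e-04). Of the other synaptotagmins, most of which bind calcium weakly or not at all, 4 of 5 were higher, or 2 of 5 with the GC trend removed, among them Syt11 at 0.17 ± 0.042 (SE, limma adjusted p = 0.00125).

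**Figure D1:**
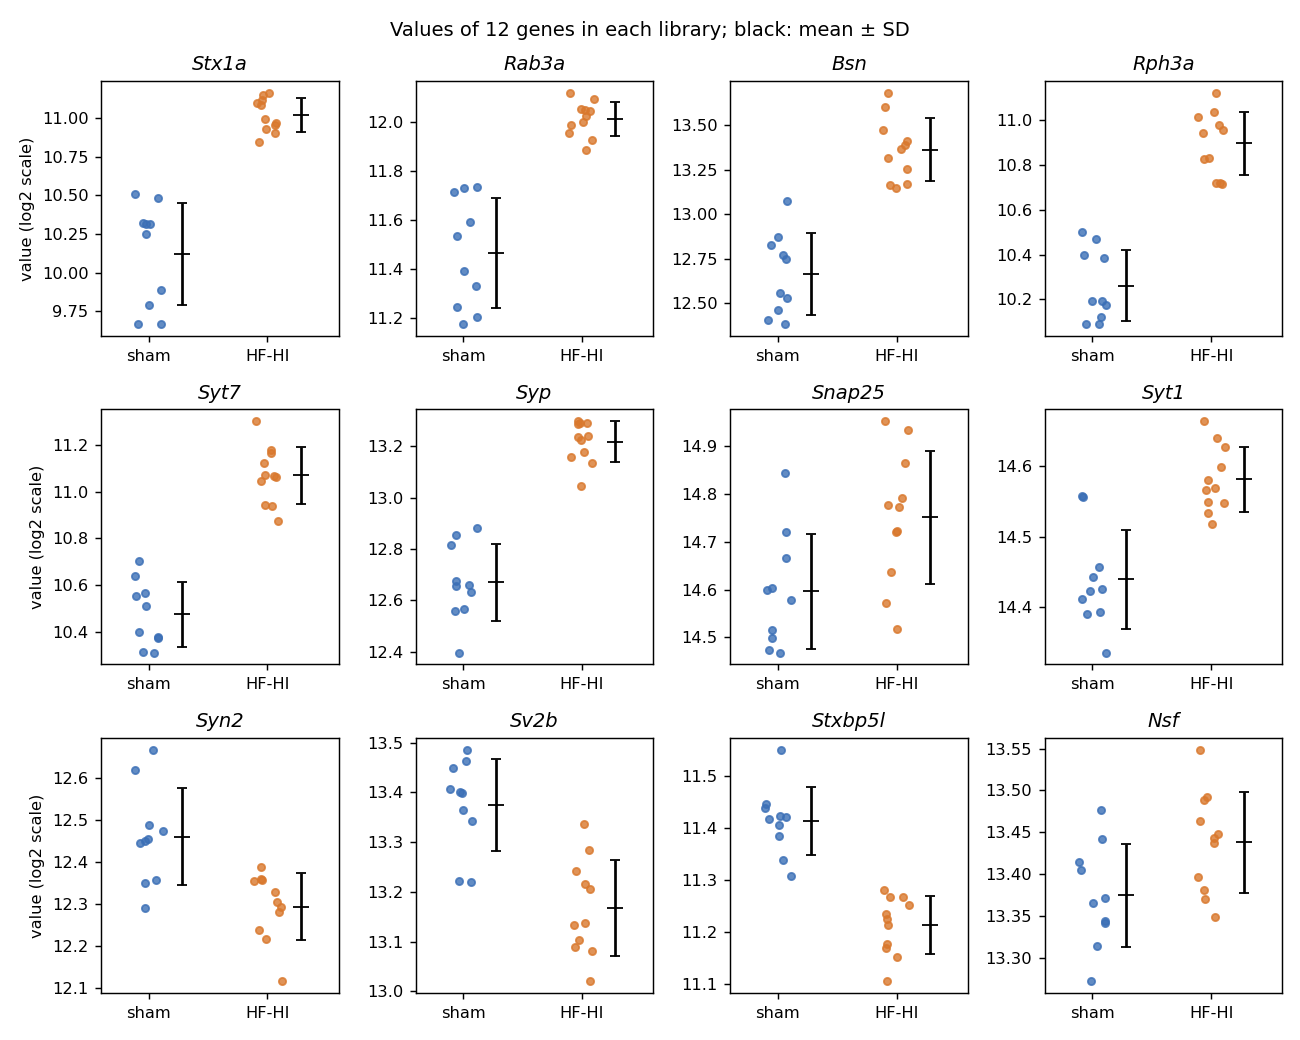
Values of 12 genes in each library on the log2 scale, blue for 10 sham and orange for 11 HF-HI mice, with black marks for mean and SD. In the upper row and for Syt7, Syp and Stxbp5l the groups do not overlap, and Stxbp5l is the one of these that is lower in HF-HI. Stx1a lies at 10.51 or less in sham and 10.85 or more in HF-HI. The groups overlap for Snap25, Syt1, Syn2, Sv2b and Nsf.

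Of 12 scaffold genes of the active zone, 7 were higher and 2 lower. Bsn encodes bassoon, a giant protein that tethers vesicles near release sites, from a gene at chr9:108096022-108190384. Its values were 12.38, 12.65 and 13.07 in sham and 13.15, 13.37 and 13.68 in HF-HI, lowest, median and highest, and the groups did not overlap. The difference was 0.70 ± 0.082 (SE, limma adjusted p = 1.79e-07), and 0.42 with the GC trend removed (adjusted p = 1.53e-06). Pclo, which encodes the related protein piccolo, ran from 12.99 to 13.27, median 13.12 in sham and from 13.17 to 13.44, median 13.32 in HF-HI. Those ranges overlapped, and its difference was 0.19 ± 0.043 (SE, limma adjusted p = 5.82e-04).

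Rim proteins link vesicle-bound Rab3 to calcium channels. Rims1 differed by 0.22 ± 0.049 (SE, limma adjusted p = 4.63e-04) and the short form Rims4 by 0.35 ± 0.069 (SE, limma adjusted p = 1.20e-04), whereas Rims2 was lower, at -0.10 ± 0.035 (SE, limma adjusted p = 0.0140), a call lost with the GC trend removed (adjusted p = 0.112). Rimbp2, which binds Rim proteins and calcium channels, had values of 8.99, 9.19 and 9.47 in sham and 9.59, 9.75 and 9.93 in HF-HI without overlap. It differed by 0.53 ± 0.067 (SE, limma adjusted p = 4.87e-07). The ELKS proteins, which bind Rim and bassoon, also had opposite signs: Erc1 was higher, at 0.23 ± 0.045 (SE, limma adjusted p = 9.44e-05), and Erc2 lower, at -0.13 ± 0.027 (SE, limma adjusted p = 3.38e-04). Liprins (Ppfia genes), which organize the scaffold, had 1 higher gene of 3, Ppfia4 at 0.17, whose sign turned to -0.055 with the GC trend removed (adjusted p = 0.410), where Ppfia2 passed as higher at 0.11 (adjusted p = 0.0325). Ppfia4 did not pass with centred libraries (0.12, adjusted p = 0.0677), without sham 1 to 4 (0.16, adjusted p = 0.0529) or without sham 8 to 10 (0.15, adjusted p = 0.0610) either.

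Vesicle membrane and surface proteins all passed the threshold, with 5 higher and 3 lower, but with the GC trend removed 2 of the 8 were higher and 3 lower. Syp encodes synaptophysin, the most familiar marker protein of the vesicle membrane, and its values were 12.39, 12.66 and 12.88 in sham and 13.05, 13.24 and 13.30 in HF-HI, lowest, median and highest. The groups did not overlap, and the difference was 0.55 ± 0.050 (SE, limma adjusted p = 5.41e-09). The gene spans chrX:7638471-7653256. Synapsins tether vesicles in the reserve cluster. Syn1 ran from 10.34 to 10.87, median 10.54 in sham and from 10.70 to 11.36, median 10.93 in HF-HI, with 7 HF-HI libraries above all of sham, and differed by 0.40 ± 0.083 (SE, limma adjusted p = 2.10e-04). With the GC trend removed it was 0.17 and did not pass (adjusted p = 0.0771). Syn2 was lower. It ran from 12.29 to 12.67, median 12.45 in sham and from 12.12 to 12.39, median 12.30 in HF-HI, with a difference of -0.17 ± 0.043 (SE, limma adjusted p = 0.00156) and overlapping ranges.

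The SV2 glycoproteins, which resemble transporters and bind synaptotagmin, were also divided. Sv2b ran from 13.22 to 13.49, median 13.40 in sham and from 13.02 to 13.34, median 13.14 in HF-HI, with 8 HF-HI libraries below all of sham, and differed by -0.21 ± 0.041 (SE, limma adjusted p = 1.30e-04). Sv2a was higher, with 10 HF-HI libraries above all of sham, at 0.15 ± 0.028 (SE, limma adjusted p = 4.52e-05), but at 0.013 it did not pass with the GC trend removed (adjusted p = 0.678). Sv2c lay just inside the threshold, at 0.15 ± 0.061 (SE, limma adjusted p = 0.0362), and did not pass with centred libraries (0.097, adjusted p = 0.148), quantile normalization (0.072, adjusted p = 0.241), depth as a covariate (0.13, adjusted p = 0.0858) or the GC trend removed (0.14, adjusted p = 0.0511). Synaptogyrins are tetraspan proteins of the vesicle membrane, and Syngr1 was higher (0.38 ± 0.069, SE, limma adjusted p = 4.44e-05) while Syngr3 was lower (-0.17 ± 0.058, SE, limma adjusted p = 0.0120).

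Rab3 GTPases bring vesicles to the active zone. Rab3a, the main form in brain, had values of 11.17, 11.46 and 11.73 in sham and 11.88, 12.03 and 12.12 in HF-HI, lowest, median and highest, without overlap. Its difference was 0.55 ± 0.066 (SE, limma adjusted p = 2.75e-07). Rph3a, which encodes the Rab3 effector rabphilin, ran from 10.09 to 10.50, median 10.19 in sham and from 10.71 to 11.12, median 10.94 in HF-HI, again without overlap, and differed by 0.63 ± 0.062 (SE, limma adjusted p = 1.40e-08). Rab3c was lower, at -0.14 ± 0.036 (SE, limma adjusted p = 0.00172), and did not pass with the GC trend removed (-0.019, adjusted p = 0.662). The subunits of the enzyme that switches Rab3 off lay on either side of the threshold: Rab3gap2 at -0.074 ± 0.031 (SE, limma adjusted p = 0.0368) and Rab3gap1 at -0.074 ± 0.034 (SE, limma adjusted p = 0.0609). Rab3gap1 passed as lower with centred libraries (-0.13, adjusted p = 0.00339) and quantile normalization (-0.11, adjusted p = 0.00558), and was -0.0038 with the GC trend removed (adjusted p = 0.922). Of the other Rab GTPases, Rab31 was lower without overlap (-0.26 ± 0.035, SE, limma adjusted p = 1.22e-06), Rab39b was lower (-0.24 ± 0.036, SE, limma adjusted p = 4.45e-06) and Rab35 did not pass (0.012), but was lower at -0.13 with the GC trend removed (adjusted p = 0.0293). In vesicle retrieval, Snap91, a clathrin assembly protein, was higher (0.11 ± 0.031, SE, limma adjusted p = 0.00276), a call lost with centred libraries. Synj2bp was lower at -0.17, but -0.032 with the GC trend removed, where it did not pass (adjusted p = 0.463), and the synaptojanins Synj1 and Synj2 did not pass.

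Paralogues were also compared within each library, where a scaling of the whole library cancels. Where both partners had passed with opposite signs, as for Rab3a and Rab3c, a changed difference gives the same observation again. Of 17 pairs in the table, the difference between partners changed with HF-HI in 15 (permutation test, two-sided, 100000 resamples, adjusted over the 17 pairs, p under 0.05). No share over other pairs of genes was computed, and with 32.6% of all genes higher and 33.6% lower, other pairs could change too, so the count says nothing particular to paralogues. Rab3a rose relative to Rab3c by 0.69 ± 0.092 (SE), from a mean difference between the genes of -1.32 ± 0.27 in sham (SD, n = 10) to -0.63 ± 0.11 in HF-HI (SD, n = 11), and the groups did not overlap. Its adjusted p was 5.67e-05, from 2.00e-05 before adjustment, the smallest these permutations can give. The same p was found, without overlap, for Syngr1 relative to Syngr3 at 0.55 ± 0.060 (SE), Napa relative to Napb at 0.49 ± 0.062 (SE), Erc1 relative to Erc2 at 0.36 ± 0.044 (SE), Snap25 relative to Snap47 at 0.36 ± 0.043 (SE) and Unc13a relative to Unc13b at 0.33 ± 0.051 (SE).

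Synapsin 1 gained on synapsin 2 by 0.57 ± 0.10 (SE, permutation, adjusted p = 1.70e-04), and Bsn on Pclo by 0.51 ± 0.083 (SE, permutation, adjusted p = 9.71e-05). Sv2a gained on Sv2b by 0.36 ± 0.058 (SE), Rims1 on Rims2 by 0.32 ± 0.064 (SE) and Cplx1 on Cplx2 by 0.21 ± 0.066 (SE). In the opposite direction, Syt1 changed relative to Syt2 by -0.22 ± 0.046 (SE, permutation, adjusted p = 3.68e-04). For Vamp2 against Vamp1 the change was 0.094 ± 0.10 (SE, permutation, adjusted p = 0.375), which did not pass. With the GC trend removed, 12 pairs passed, and those lost were Unc13a with Unc13b, Syt1 with Syt2 and Cadps with Cadps2. Rab3a then gained 0.39 on Rab3c, Bsn 0.18 on Pclo, Napa 0.27 on Napb, Sv2a 0.17 on Sv2b and Snap25 0.59 on Snap47. The change of Syt5 relative to Syt11 was -0.16, and -0.32 with the trend removed.

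**Figure D2:**
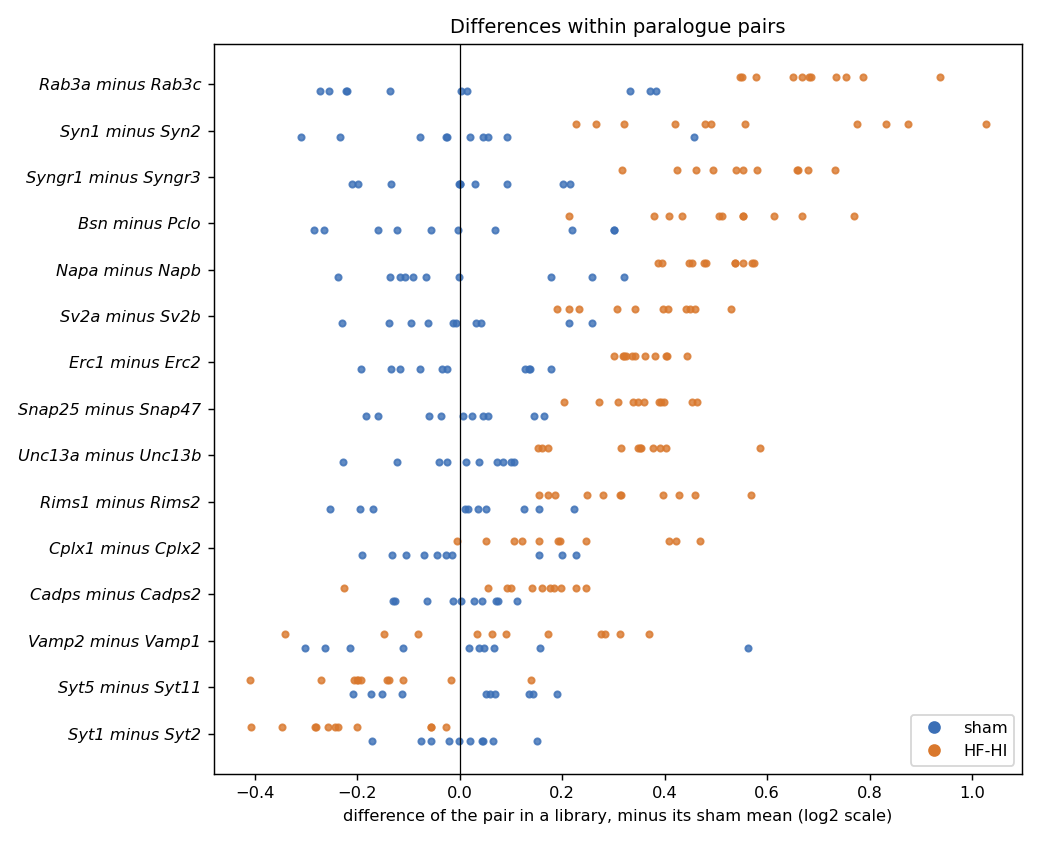
Difference of 15 paralogue pairs in every library, minus its sham mean, on the log2 scale, with 10 sham libraries in blue and 11 HF-HI libraries in orange. The HF-HI libraries lie to the right for Rab3a minus Rab3c, by 0.69 on average, and to the left for Syt1 minus Syt2, by -0.22.

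The exonic GC content of a gene, which the choice of members did not use, moved with its difference. Of the 31 members with a GC content of 50% or more, 23 were higher and 3 lower, and of the 38 below 50%, 11 were higher and 14 lower. Shares of all genes in these GC ranges are not given here, so the counts say nothing particular to the members. Across 69 members with a value the Spearman correlation of difference and GC content was 0.61, and 0.48 across 5539 genes of the table, where genes share libraries and are not independent. Median GC was 48.2% in members and 47.6% in the table. Within libraries, values sloped on GC content. This slope, in log2 per 10% GC, ran from -0.23 to 0.0058 in sham and from -0.039 to 0.16 in HF-HI, with medians of -0.11 and 0.11. HF-HI replicate 9, at -0.039, lay within the range of sham.

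With each library's GC trend removed, 28 of 69 members were higher and 14 lower, beside 1620 higher and 1716 lower of 5539 genes. Of the 34 higher genes 26 kept their call and sign, as did 12 of the 17 lower genes that have a GC content. The 10 higher members without overlap were among those, with Stx1a at 0.63, Syp at 0.48, Rph3a at 0.46 and Rab3a at 0.38. Several values moved by more than 1.5 times, Bsn (to 0.42) and Cplx1 of those 10 among them: Syt1 to 0.22, Stxbp5 to 0.21, Syngr3 to -0.37 and Snap47 to -0.30 lay further from 0, while Napa at 0.12, Rims4 at 0.16, Syngr1 at 0.20, Cplx1 at 0.23, Rab39b at -0.12, Stxbp5l at -0.068 and Erc2 at -0.081 lay nearer to it. Unc13b at -0.067, Cadps2 at -0.12 and Rims2 at -0.063 were nearer to 0 as well and did not pass. Removal of the trend would also remove any true difference that follows GC content. The part of GC content in the other differences was not tested. Relative depth, estimated from the spacing of values within a library, ran from 0.580 to 1.26 in sham (median 0.864) and from 0.548 to 1.64 in HF-HI (median 1.17). The spacing was least regular in the deepest libraries, so their estimates and the covariate are less certain: its phase coherence, which is 1 for perfect regularity, was 0.510 in HF-HI replicate 6. With depth as a covariate, chosen after seeing the data, 30 members were higher and 19 lower, beside 1783 and 1852 of all genes.

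**Figure D3:**
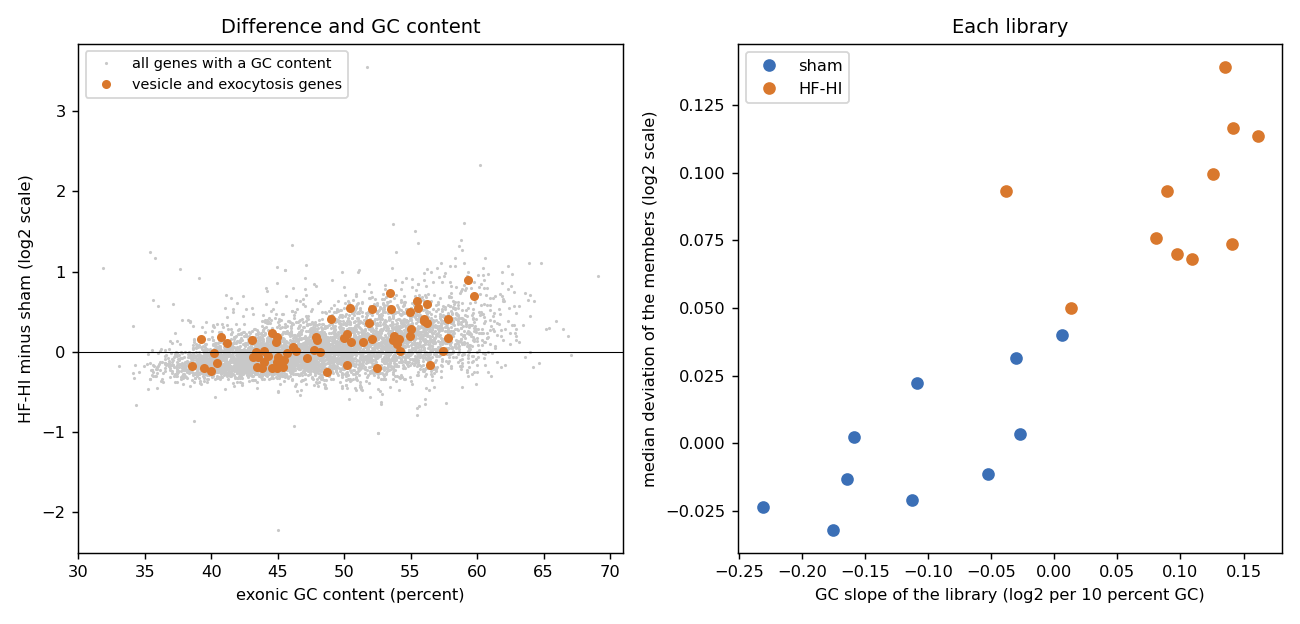
Left, log2 difference of HF-HI minus sham against exonic GC content, with the 69 members that have a GC content in orange over 5539 genes in grey. Right, for each library, the median deviation of the members from their sham means against the library's GC slope in log2 per 10% GC. Libraries were not centred. Sham (blue) lies between -0.032 and 0.040 and HF-HI (orange) between 0.050 and 0.14 on the vertical axis.

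Across libraries, the median deviation of all 70 members from their sham means was -0.032 to 0.040 in sham and 0.050 to 0.14 in HF-HI. Libraries were not centred for these values, and centring shifted the median difference over all genes by -0.052. The same ranges over all genes are not given here, so the separation says nothing particular to the members. Single members varied more, with a median over members of the SD between libraries of 0.11 in sham and 0.10 in HF-HI, beside 0.11 and 0.092 over the table. HF-HI replicate 9 was the lowest HF-HI library for 20 members and the highest for 15. In sham, replicate 2 was lowest for 15 members and replicate 8 highest for 13. Of the 52 members called, 50 were called with each library left out in turn, and Sv2c and Rab3gap2 were the exceptions, each called in 13 of 21 fits.

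Promoter windows from RefSeq (build GRCm38.p6), each of 300 bases with 250 before the start of a transcript, were matched by symbol to 56 of the 70 members and to 4329 genes of the table. Both strands were searched for the cAMP response element TGACGTCA, the GC box GGGCGG, the Egr site GCGTGGGCG and the E-box CACGTG. A GC box can share bases with an Egr site, and an E-box with a cAMP response element. A GC box was in the windows of 45 members (80.4%, and 74.5% of all genes matched), in 21 of the 25 higher and 12 of the 15 lower members that had a window. An E-box was in 10 (17.9%, all genes 12.7%), with 2 higher and 5 lower members among them. The cAMP response element was in 2, Syn1 and Napa (3.57%, all genes 4.18%), and the Egr site in 2, Unc13a and Synj1 (3.57%, all genes 1.57%). Members with no window matched included Napg, Rims2, Rims4, Snap25, Syngr3, Syt12, Syt13, Syt4, Syt5, Syt7, Vamp2 and Vamp7. A match shows only that these letters are in the window.

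The windows of 3 higher members without overlap (Stx1a, Bsn and Syp), of Syn1 with its cAMP response element, and of both lower members without overlap (Stxbp5l and Rab31) are shown 5′ to 3′ to set genes of opposite sign side by side, with every motif found in capitals.
Stx1a (chr5:135023232-135023531, plus strand): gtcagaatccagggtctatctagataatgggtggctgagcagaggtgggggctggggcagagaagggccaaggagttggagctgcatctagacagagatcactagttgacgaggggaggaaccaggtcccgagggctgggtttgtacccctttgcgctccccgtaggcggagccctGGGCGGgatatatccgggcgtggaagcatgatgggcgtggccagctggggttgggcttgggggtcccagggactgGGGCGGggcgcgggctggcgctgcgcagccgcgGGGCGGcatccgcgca
Bsn (chr9:108190334-108190633, minus strand): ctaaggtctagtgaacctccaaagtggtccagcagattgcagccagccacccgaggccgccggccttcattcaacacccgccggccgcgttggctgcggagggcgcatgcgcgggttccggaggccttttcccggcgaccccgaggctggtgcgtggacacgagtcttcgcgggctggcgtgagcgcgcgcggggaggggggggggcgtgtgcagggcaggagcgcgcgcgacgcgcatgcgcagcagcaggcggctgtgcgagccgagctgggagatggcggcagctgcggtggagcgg
Syp (chrX:7638330-7638629, plus strand): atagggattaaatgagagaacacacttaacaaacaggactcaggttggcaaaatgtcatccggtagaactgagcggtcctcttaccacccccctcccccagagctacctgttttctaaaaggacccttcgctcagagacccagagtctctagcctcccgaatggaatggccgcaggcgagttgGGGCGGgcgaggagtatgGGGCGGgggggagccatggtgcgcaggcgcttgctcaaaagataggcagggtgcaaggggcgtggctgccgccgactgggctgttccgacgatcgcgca
Syn1 (chrX:20920869-20921168, minus strand): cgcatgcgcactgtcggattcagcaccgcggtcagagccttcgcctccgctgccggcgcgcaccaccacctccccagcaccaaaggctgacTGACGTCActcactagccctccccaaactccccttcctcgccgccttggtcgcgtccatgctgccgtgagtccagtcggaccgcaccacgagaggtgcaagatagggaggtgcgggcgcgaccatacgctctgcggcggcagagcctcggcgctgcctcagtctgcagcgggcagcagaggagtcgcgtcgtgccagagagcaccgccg
Stxbp5l (chr16:37384909-37385208, minus strand): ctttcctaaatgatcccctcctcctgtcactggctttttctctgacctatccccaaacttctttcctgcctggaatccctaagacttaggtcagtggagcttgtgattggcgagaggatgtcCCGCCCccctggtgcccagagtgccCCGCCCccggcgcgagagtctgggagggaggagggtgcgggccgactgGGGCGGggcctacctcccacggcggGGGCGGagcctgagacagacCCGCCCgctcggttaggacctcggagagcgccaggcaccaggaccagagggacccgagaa
Rab31 (chr17:65772703-65773002, minus strand): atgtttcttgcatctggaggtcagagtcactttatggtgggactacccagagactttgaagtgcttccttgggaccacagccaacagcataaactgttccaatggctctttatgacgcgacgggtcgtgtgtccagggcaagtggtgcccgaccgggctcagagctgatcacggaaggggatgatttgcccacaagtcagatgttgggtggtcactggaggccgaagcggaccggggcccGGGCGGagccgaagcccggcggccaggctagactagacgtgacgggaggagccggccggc
GC boxes stand in the windows of Stx1a, Syp, Stxbp5l and Rab31, and no motif of the 4 was found in that of Bsn.

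Of the other genes of the vesicle cycle, 60 of 71 listed were in the table, and of these 22 were higher, 18 lower and 20 did not pass, with a median of -0.0069. Those are 36.7% and 30.0%, beside 32.6% and 33.6% of all genes. With centred libraries 18 were higher and 24 lower, beside 1448 and 2376 of all 5544 genes. Transmitter loading had 4 higher and 2 lower genes of 7. Slc17a7, the vesicular glutamate transporter of cortical excitatory neurons, had values of 12.10, 12.39 and 12.55 in sham and 13.11, 13.26 and 13.42 in HF-HI, lowest, median and highest. The groups did not overlap, and the difference was 0.89 ± 0.059 (SE, limma adjusted p = 8.88e-11). Calcium channel genes had 3 higher and 2 lower of 9, and retrieval genes 8 higher and 8 lower of 22 (7 and 10 with centred libraries).

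The largest differences of the list were those of Sncb, which encodes beta-synuclein, a presynaptic protein, at 1.11 ± 0.12 (SE, limma adjusted p = 9.14e-08), and of Slc17a7. In the other direction were Synpr, which encodes the vesicle protein synaptoporin, at -0.34 ± 0.083 (SE, limma adjusted p = 0.00105), and Ap2m1, a subunit of the clathrin adaptor AP-2, at -0.27 ± 0.036 (SE, limma adjusted p = 1.03e-06). Synpr was -0.21 with the GC trend removed (limma adjusted p = 0.0326). Sncb ran from 8.28 to 9.49, median 8.98 in sham and from 9.78 to 10.47, median 10.01 in HF-HI, without overlap. Chaperones and other presynaptic proteins had 7 higher and 6 lower genes of 22 (4 and 10 with centred libraries).

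Cell type markers were read beside these values and beside the shares of all genes, 32.6% higher and 33.6% lower. The lists are short, and counts near those shares say nothing particular to a cell type. Markers of cortical excitatory neurons had 5 higher and no lower genes of 6 in the table (7 listed, Fezf2 not in it), with a median of 0.55. Their summed level, as log2 of the summed linear values, was 14.19 to 14.54, median 14.33 in sham and 14.76 to 15.10, median 14.83 in HF-HI, without overlap, and Camk2a was the most abundant, at a mean of 13.71 and 14.06. The groups overlapped for Camk2a alone, and Slc17a7, described above with the vesicle cycle, is also in this sum. The 6 general neuron markers had 3 higher and 1 lower (2 and 2 with centred libraries), with summed levels of 15.56 to 15.65, median 15.60 in sham and 15.53 to 15.64, median 15.57 in HF-HI, and Map2 the most abundant. Their part in the differences of the vesicle genes was not tested.

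The counts of the remaining lists stand beside the same shares, 32.6% of all genes higher and 33.6% lower. With centred libraries, 1448 of all 5544 genes were higher and 2376 lower. Inhibitory neuron markers had 2 higher genes of 5 (2 higher and 1 lower with centred libraries), with Vip not in the table. Their summed levels were 12.79 to 13.10, median 12.96 in sham and 12.74 to 13.19, median 12.98 in HF-HI, and Gad1 was the most abundant. Astrocyte markers had 3 higher and 1 lower of 7 (1 and 2 with centred libraries), with summed levels of 16.01 to 16.14, median 16.08 in sham and 16.06 to 16.20, median 16.11 in HF-HI, led by Slc1a2. For oligodendrocytes 2 of 7 were higher (2 higher and 2 lower with the GC trend removed), and summed levels were 15.26 to 15.98, median 15.58 in sham and 15.29 to 15.99, median 15.74. The table held 1 of 7 microglial markers (Csf1r), 2 of 6 endothelial markers (Flt1 and Slco1a4) and 1 of 4 choroid plexus markers, Ttr. Csf1r was higher, at 0.13 ± 0.046 (SE, limma adjusted p = 0.0184), but did not pass with centred libraries (0.076, adjusted p = 0.144), quantile normalization (0.092, adjusted p = 0.0711), depth as a covariate (0.096, adjusted p = 0.0767), the GC trend removed (-0.0038, adjusted p = 0.940) or sham 1 to 4 left out (0.11, adjusted p = 0.0637). Flt1 was higher, at 0.28 ± 0.041 (SE, limma adjusted p = 3.76e-06), and Slco1a4 lower without overlap, at -0.24 ± 0.041 (SE, limma adjusted p = 2.44e-05). With the GC trend removed Slco1a4 was -0.10 (limma adjusted p = 0.0186). It did not pass when the replicate block was added to that fit (-0.11, limma adjusted p = 0.0621). Summed levels were 9.04 to 9.39, median 9.18 in sham and 9.18 to 9.48, median 9.33 in HF-HI for microglia, and 10.12 to 10.34, median 10.26 and 10.19 to 10.32, median 10.26 for endothelial cells. Ttr ran from 6.16 to 11.51, median 7.46 in sham and from 6.86 to 13.35, median 7.25 in HF-HI, and its groups overlapped.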

How the data were processed

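RNA from cortex was made into stranded libraries after ribosomal RNA had been depleted. The authors used STAR and mm10 for alignment, eXpress for quantification and DESeq2 for normalization, and deposited variance-stabilized log2 values, 1 per gene and library. Genes outside that table were not analysed here. Because counts were not used, total depth is unknown, and relative depth was read from the spacing of linear values of 500 to 600. eXpress may have split reads that similar paralogues share. Annotation came from GENCODE for GRCm38, which is mm10 (symbols for 5541 genes, exonic GC content for 5539). Vamp7 lies on a scaffold and has no GC content here.

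The comparison used lmFit and eBayes with a trend from limma 3.58.1 (R 4.3.3), two-sided, with Benjamini-Hochberg adjustment over 5544 genes and a threshold of 0.05. The pairs were tested by permutation with 100000 resamples, and GC trends were subtracted per library as lowess curves (span 0.3). Python 3.11.15 was used with matplotlib 3.10.9, pandas 2.3.3, statsmodels 0.14.6, scipy 1.17.1 and numpy 2.4.6. The fits were tested on simulated data. The genes named by rule are 19 core members, 12 further members with the largest differences past the threshold, the genes of the pairs, those nearest the threshold on each side, and 4 other genes of the vesicle cycle with the largest differences. Stx6, Stx7, Stx16, Stxbp5l, Snap91, Rab35, Synj1, Synj2, Synj2bp, Ppfia2, Ppfia4, Csf1r, Flt1, Slco1a4 and Ttr were named after their values were seen. Single results of some genes are not reported here. The members and lists were chosen with earlier results of these data known. Also tried were a threshold of 0.1, a minimum difference of 0.25, eBayes without trend, centred medians, quantile normalization, leaving out the lowest 25% of genes, a replicate block, GC trend removal with and without that block, leaving out each library and, added after seeing the data, relative depth as a covariate and leaving out sham 1 to 4 or sham 8 to 10.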

Additional observations from a re-analysis of the deposited data

Results flagged for a closer look

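Gaps were examined in the sham group, as the HF-HI group is larger than the 10 samples the rule covers. Chance flags about 1 in 20 groups, and 5 of 67 sham groups were past the limit. Unc13a, the priming factor, was lowest in sham replicate 4, at 11.88, far from the other 9 sham libraries at 12.09 to 12.29. Rims2 was lowest in sham replicate 5, at 10.37, far from the other 9 sham libraries at 10.53 to 10.67. Synpr was highest in sham replicate 9, at 10.93, far from the other 9 sham libraries at 10.28 to 10.57. The difference Vamp2 minus Vamp1 was highest in sham replicate 5, at 1.499, far from the other 9 sham libraries at 0.63 to 1.09. The difference Syn1 minus Syn2 was highest in sham replicate 4, at -1.42, far from the other 9 sham libraries at -2.19 to -1.78. These values are given without an explanation.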

How the results depend on the processing

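Against 34 higher and 18 lower members, there were 37 and 19 at a threshold of 0.1, 34 and 18 without a trend, 31 and 17 without the lowest 25% of genes, 27 and 21 with centred medians, 30 and 21 with quantile normalization, 28 and 14 with the GC trend removed, and 30 and 19 with relative depth as a covariate, chosen after seeing the data. So were fits without sham 1 to 4, with 29 and 14, and without sham 8 to 10, with 34 and 19. With a minimum difference of 0.25, 17 were higher and 2 lower. Over all genes, 1810 and 1864 were higher and lower, 1970 and 2062 at a threshold of 0.1, 987 and 446 with a minimum difference of 0.25, 1812 and 1868 without a trend, 1348 and 1456 (of 4158) without the lowest 25% of genes, 1448 and 2376 with centred medians, 1547 and 2242 with quantile normalization, 1620 and 1716 (of 5539) with the GC trend removed, 1783 and 1852 with relative depth as a covariate, 1582 and 1605 without sham 1 to 4 and 1834 and 1884 without sham 8 to 10. The median difference of 0.11 was 0.057 with centred medians, 0.072 with quantile normalization, 0.059 with the GC trend removed and 0.068 without sham 1 to 4, where Snap25, Cadps2, Rims2, Stxbp5, Syngr3, Sv2c and Rab3gap2 were among those that lost their calls. Without sham 8 to 10 Rab3gap2 lost its call and Rab3gap1 passed. With the GC trend removed and the replicate block, 27 were higher and 11 lower (1504 and 1579 of all genes), and the median was 0.054. The cause was not tested. With each library left out in turn, 33 to 36 were higher, 17 to 19 lower and the median ran from 0.10 to 0.12.

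With the GC trend removed, the pair Vamp2 minus Vamp1 changed by -0.031, a change of sign, and 3 pairs no longer passed: Unc13a minus Unc13b at 0.11, Syt1 minus Syt2 at -0.051 and Cadps minus Cadps2 at 0.096. Syt5, which did not pass, turned its sign to -0.041 with centred medians, -0.030 with quantile normalization, -0.21 with the GC trend removed, -0.20 with that and the replicate block, and -0.00519 with depth as a covariate, and -0.0079 without sham 1 to 4; leaving out each library gave -0.017 to 0.029. Rab3gap1 was 0.0018 with the GC trend removed and the replicate block, where Stxbp5l (-0.061, adjusted p = 0.103) and Slco1a4 (-0.11, adjusted p = 0.0621) did not pass. Napa (0.13, limma adjusted p = 0.0599), Erc2 (-0.078, limma adjusted p = 0.0535) and Rab3gap2 (-0.070, limma adjusted p = 0.0991) also lost their calls in that fit. The cause was not tested.

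With the replicate block on the 20 libraries with shared numbers, without HF-HI replicate 11, 33 members were higher and 17 lower (1739 and 1758 of all genes), with a median of 0.11; Sv2c and Rab3gap2 lost their calls. Deviations of same-numbered libraries correlated from -0.31 to 0.36. Correlations of differently numbered libraries are not given beside them, so these values cannot show whether the numbers pair the mice.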
